A study of Mus musculus with 3 samples.

Results

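The genes described are the 84 cytosolic ribosomal protein genes of the mouse, 52 of the large subunit (Rpl) and 32 of the small subunit (Rps), among 55536 annotated genes. They were chosen by symbol alone: Rpl or Rps followed by a number, P0 to P2 or A, with at least 1 protein-coding transcript model, and without ribosomal S6 kinases and named pseudogenes. No measured value enters that rule. RNA of the chromatin fraction was sequenced after ribosomal RNA depletion from bone-marrow-derived macrophages of C57BL/6J mice, primary cells treated with lipid A, the membrane anchor of bacterial endotoxin, at 100 ng/ml for 30 min. There is 1 group of 3 libraries, made from 1 µg, 250 ng and 500 ng of RNA in libraries 1, 2 and 3, and every library carries the treatment, so no value can be set against untreated cells. The libraries share a donor record in the labels, and separate animals or cultures are not stated, so every spread below describes these libraries and may be technical.

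A cytosolic ribosome joins a large subunit, which forms peptide bonds, to a small subunit, which reads the messenger RNA. Ribosomal protein genes are short and highly transcribed in most cells, and their messenger RNAs typically begin with a cytosine followed by a run of pyrimidines, the terminal oligopyrimidine (TOP) tract, through which mTOR and Larp1 control their translation. Many of these genes also carry small nucleolar RNAs (snoRNAs) in their introns, which are released from the spliced-out intron and guide the modification of ribosomal RNA. In a chromatin fraction, unspliced and newly made RNA is enriched over the mature messenger RNA of the cytoplasm.

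The 3 libraries held 16301150, 17033725 and 16205704 expected counts over annotated genes. Levels are given as TPM, each gene's length-corrected share of a library's RNA on a fixed total, and as log2(TPM + 0.1) where sets are summarised. TPM is shared out among all RNAs of a library, and 87.5% of detected protein-coding genes had their highest TPM in library 3. An SD of TPM over libraries includes such shifts shared by many genes. Differences between libraries are therefore described on log2 CPM, counts scaled to library size with TMM factors. All 6 macrophage markers were detected, with a summed level of 498 to 709 TPM, whereas 0 of 4 T and NK cell markers (3 of them at 0 in every library), 0 of 3 B cell markers, 0 of 3 neutrophil markers and 0 of 2 erythroid markers were. For fibroblasts 1 of 2 markers was detected, with a sum of at most 0.34 TPM, and for endothelium 1 of 2, with a sum of 1.05 to 1.68 TPM.

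A run of pyrimidines at the annotated start, the feature the family is known for, was present in 40.8% of the genes' windows by the definition below. The share depends on that definition: it was 53.9% for a run of at least 4 and 56.6% within 10 bases of the start. Printed here are the windows of 4 genes with a long pyrimidine run. With them are those of the large and small subunit genes with the highest mean TPM in the first deposited quantification. That of Rps3, a host of abundant snoRNAs, is also printed. Each window spans 30 bases before the annotated start and 20 bases from it onward, from RefSeq on GRCm38.p6, 5′ to 3′ on the gene's own strand. Capitals mark an unbroken run of at least 5 C or T that covers the first transcribed base or begins within 5 bases of it.
Rpl10, chrX:74270786-74270835, plus strand: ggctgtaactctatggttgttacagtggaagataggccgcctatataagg
Rps9, chr7:3704011-3704060, plus strand: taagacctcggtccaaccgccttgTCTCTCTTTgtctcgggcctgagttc
Rpl7a, chr2:26910777-26910826, plus strand: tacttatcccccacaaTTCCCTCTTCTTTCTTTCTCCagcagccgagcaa
Rpl27a, chr7:109519165-109519214, plus strand: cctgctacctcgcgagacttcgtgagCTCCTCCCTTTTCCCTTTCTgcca
Rps10, chr17:27635225-27635274, minus strand: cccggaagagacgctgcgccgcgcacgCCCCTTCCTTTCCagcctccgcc
Rps6, chr4:86857348-86857397, minus strand: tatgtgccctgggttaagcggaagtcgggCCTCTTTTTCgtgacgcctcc
Rps3, chr7:99483690-99483739, minus strand: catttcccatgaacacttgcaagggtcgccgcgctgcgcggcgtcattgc
The run is 21 bases long in Rpl7a, 20 in Rpl27a, 13 in Rps10, 10 in Rps6 and 9 in Rps9. It begins 14, 4, 3, 1 and 6 bases before the annotated start in these genes. These lengths thus include bases before the start and are not lengths of a tract in the RNA. The windows of Rpl10 and Rps3 hold no run by this definition. Absence of a run says only that these letters are not at the annotated start.

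RefSeq windows were matched for 64 of the 84 genes, 76 windows in all. Such a run was present in 31 of 76 member windows, 40.8% (exact 95% interval 29.6 to 52.7%), against 23.1% of 20150 windows of protein-coding genes and 23.6% of all 32851 windows. Large and small subunit genes held it in like shares, in 19 of 47 windows (40.4%, 26.4 to 55.7%) and 12 of 29 windows (41.4%, 23.5 to 61.1%). A longer run of at least 7 was present in 31.6% of member windows, 8.92% of windows of protein-coding genes and 9.22% of all windows. Further letters were sought in the 300 bases around the start, from 250 before it to 50 after. CCGGAAG on either strand was found in 35.5% of member windows, 11.9% of windows of protein-coding genes and 8.86% of all windows. For AAGATGG on either strand these shares were 15.8%, 6.30% and 6.34%. TATAAA on the sense strand was found in 7.89% of member windows, 7.95% of windows of protein-coding genes and 8.32% of all windows. These matches are descriptions of letters, and several members contribute more than 1 window.

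**Figure D1:**
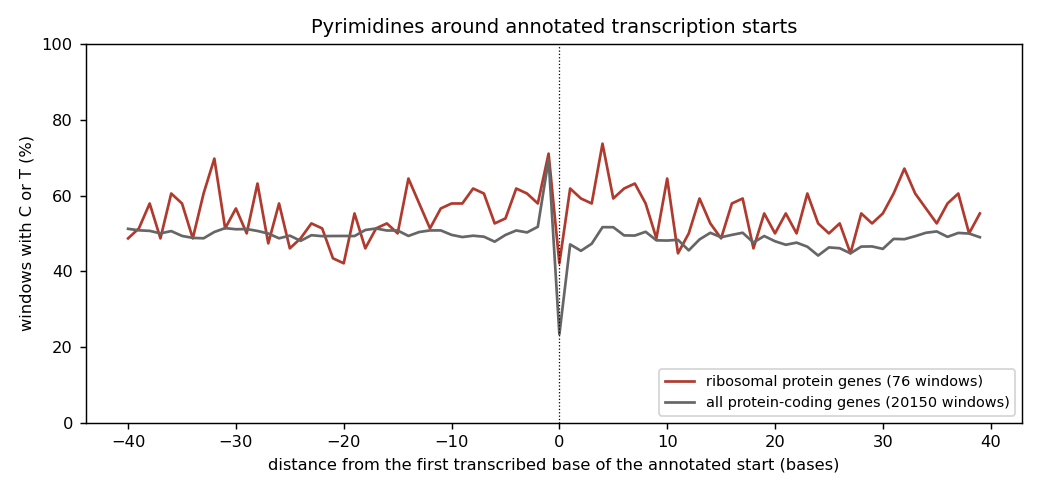
Share of windows with C or T (y, percent) at each distance from the first transcribed base of the annotated start (x, bases), for the 76 windows of ribosomal protein genes (red) and the 20150 windows of all protein-coding genes (grey). At the first transcribed base the share is 42.1% in ribosomal protein genes and 23.4% in all protein-coding genes, and 4 bases further on it is 73.7% and 51.6%.

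On chromatin, 80 of the 84 genes were detected, with 10 or more expected counts on average, 49 of 52 large and 31 of 32 small subunit genes, against 49.9% of all protein-coding genes. Their median level was 5.85, 8.44 and 10.3 TPM in libraries 1, 2 and 3, against 3.48, 4.45 and 6.88 TPM for all detected protein-coding genes. On the log2 scale the members' median was 3.01 ± 0.41 (SD over 3 libraries) and that of detected protein-coding genes 2.28 ± 0.49, a difference of 0.73, 0.91 and 0.57 within libraries 1, 2 and 3. The members lay above in every library, but the medians are not far apart: 59 of 84 members, 35 large and 24 small, exceeded the median of detected protein-coding genes, a line that 50% of those genes exceed. Detected members spanned 1.82 to 88.8 TPM in their mean over libraries, and none had a mean of 100 TPM or more, a level that 320 protein-coding genes reached. All 84 genes together held 0.0766%, 0.0866% and 0.0772% of the expected counts in libraries 1, 2 and 3, and the median member rested on 102 counts a library, against 204 for a detected protein-coding gene. The members are compact genes, with a median length of 3328.5 bases from start to end, against 25080 bases for detected protein-coding genes.

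The large and small subunit genes had similar medians. Large subunit genes had a median of 6.71, 8.41 and 10.6 TPM in libraries 1, 2 and 3, and small subunit genes 5.32, 8.72 and 9.28 TPM. Their difference in log2 was 0.33, -0.05 and 0.20, with a mean of 0.16 ± 0.19 (SD, n = 3), so its sign was not the same in every library and its size was below the spread between libraries. The choice of genes and summary set the value: without paralogs it was 0.30 ± 0.14, with the mean over genes in place of the median it was -0.16 ± 0.01, and with protein-coding transcripts alone it was -0.030. Of the 4 undetected genes, 3 belong to the large subunit. As a share of all expected counts, large subunit genes held 0.0505 ± 0.0049% and small subunit genes 0.0296 ± 0.0007%. In bulk RNA, fewer cells that express a gene and less RNA per cell cannot be told apart.

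**Figure D2:**
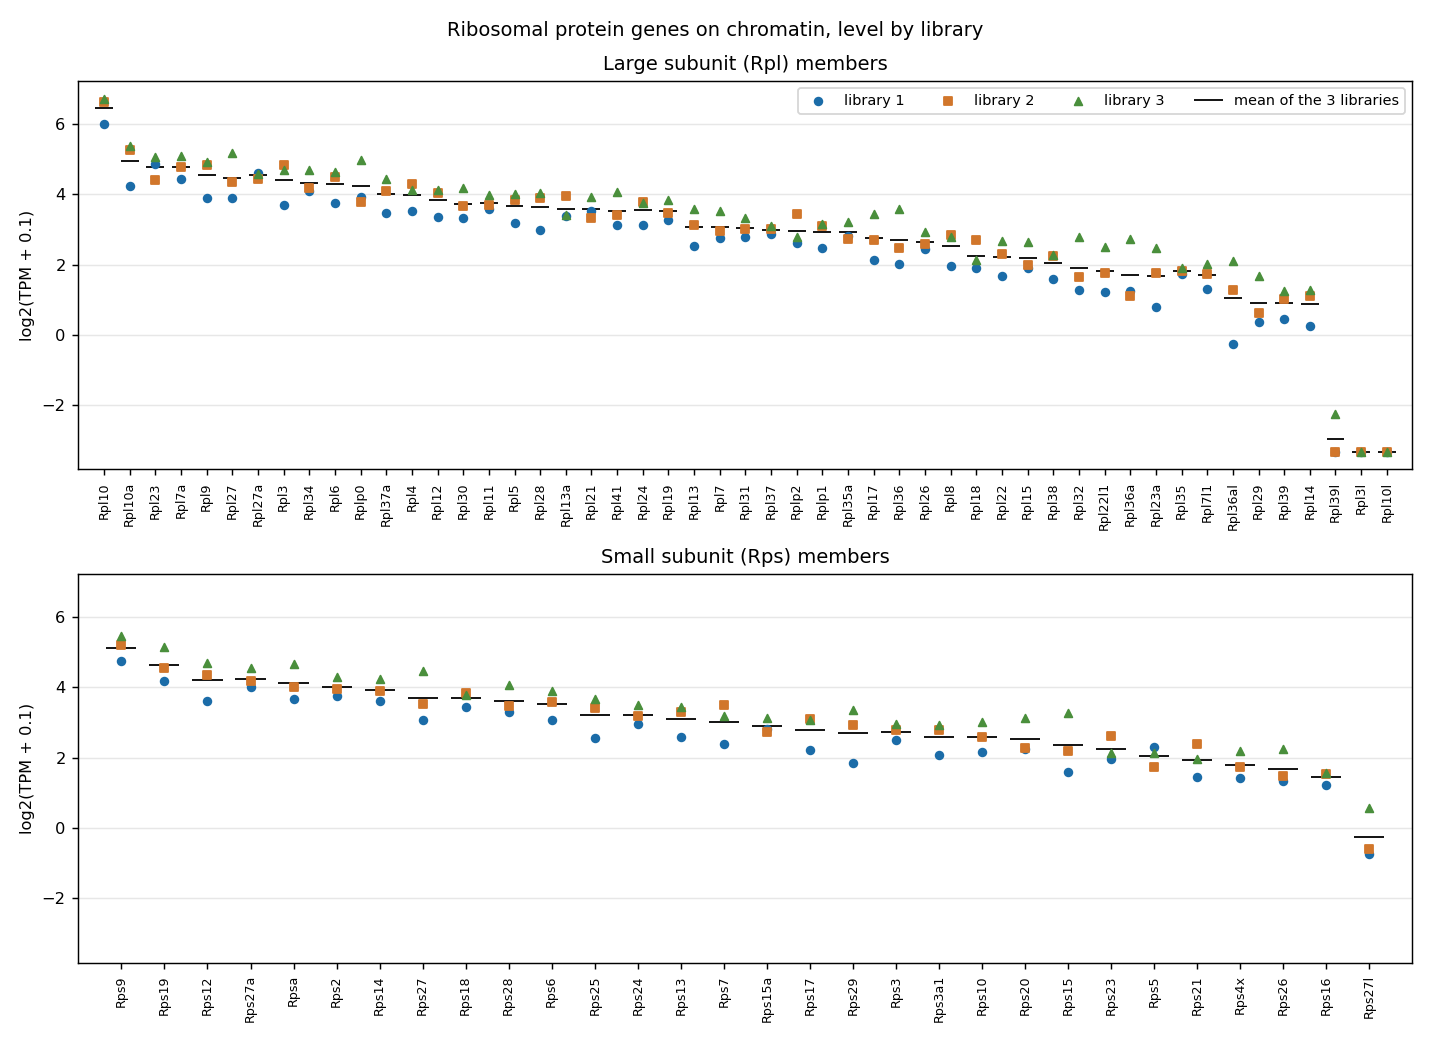
Level of 81 ribosomal protein genes, log2(TPM + 0.1), in each of the 3 libraries (points) with the mean of the log2 values (line), large subunit above and small subunit below, ordered by mean TPM. Rpl10 leads at 88.8 TPM, most genes form a continuous slope down to about 1.82 TPM, and the 4 undetected genes stand apart at the right ends.

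Among large subunit genes Rpl10 (ENSMUSG00000008682.13, chrX:74270812-74273135, mm10), whose protein joins the large subunit late in its assembly, had the highest level. Its TPM was 63.9, 97.7 and 104.7 in libraries 1, 2 and 3, a mean of 88.8 ± 21.8. It was the highest member in every library. Rpl10a (chr17:28328471-28331033), a protein of the mobile L1 stalk at the exit of transfer RNA, followed with 18.6, 37.7 and 40.9 TPM. Rpl23 (chr11:97777527-97782437), which forms a bridge to the small subunit, had 29.0, 21.2 and 33.1 TPM. Rpl7a had 21.4, 27.3 and 34.0 TPM. The order of these last 3 genes changed between libraries, so it is not set. Rpl9 had 14.8, 28.2 and 29.9 TPM, and Rpl27 had 14.6, 20.3 and 35.9 TPM. Both are structural proteins of the large subunit, and their order changed between libraries. In the second quantification the authors deposited, Rpl10 again had the highest mean, 69.1 TPM. There Rpl24 (42.1 TPM), Rpl27 (36.6 TPM), Rpl23 (36.3 TPM), Rpl36 (34.0 TPM) and Rpl19 (28.4 TPM) lay above Rpl10a (27.7 TPM). The order below Rpl10 thus depends on the quantification.

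Among small subunit genes Rps9 (ENSMUSG00000006333.14, chr7:3703993-3706897), a protein near the messenger RNA entry site, led with 26.4, 36.6 and 43.6 TPM, a mean of 35.6 ± 8.66. Rps19 (chr7:24884371-24889806), the gene most often mutated in human Diamond-Blackfan anaemia, had 18.1, 23.1 and 34.9 TPM. The order of the 2 genes is not set. Rps9 was higher in each library here, but Rps19 had the higher mean in the second quantification, at 47.4 TPM against 42.8 TPM for Rps9. Rps27, at 44.1 TPM, also lay above Rps9 there. Rps12 had 12.02, 20.0 and 25.8 TPM. Rps27a, which is translated as a fusion of ubiquitin with the ribosomal protein, had 15.9, 17.97 and 23.3 TPM. Rpsa, also known as the laminin receptor, had 12.7, 16.1 and 25.4 TPM. Rps2 had 13.2, 15.2 and 19.5 TPM, below Rps27a in each library. Its 11 named pseudogenes held 148 counts a library on average, against 210 on Rps2, so its level is uncertain in that respect. Its mean was nevertheless close in the 2 quantifications, at 16.0 TPM here and 15.5 TPM in the second.

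Members with known roles beyond protein synthesis or in the ribosomal stalk spanned the middle and upper part of the family. Rplp0, which anchors the stalk that recruits elongation factors, had 15.1, 13.7 and 31.0 TPM, and its partners Rplp1 and Rplp2 averaged 7.58 ± 1.86 and 7.87 ± 2.58 TPM. Rplp0 was thus higher than Rplp1 and Rplp2 in every library, although the ribosome holds more copies of the partners. Rpl5 and Rpl11, which with 5S ribosomal RNA bind Mdm2 and stabilise p53 when ribosome assembly is disturbed, averaged 13.0 ± 3.58 and 13.4 ± 1.89 TPM. Rpl13a, which in human monocytes leaves the ribosome to silence inflammatory messenger RNAs, had 10.3, 15.4 and 10.6 TPM. Rps6, the substrate of the ribosomal S6 kinases, averaged 11.6 ± 3.17 TPM. Rps3, a protein of the entry channel that in human cells has also been found with NF-kB, averaged 6.62 ± 1.04 TPM.

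At the low end of the detected genes, Rpl29 averaged 1.92 ± 1.05 TPM, Rpl39 1.82 ± 0.52 TPM and Rpl14 1.82 ± 0.64 TPM. In the small subunit Rps26 was low at 2.43, 2.67 and 4.61 TPM, and Rps16 was the lowest at 2.62 ± 0.36 TPM. These values rest on few counts: Rpl39, one of the smallest ribosomal proteins, had 12, 15 and 12 expected counts.

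The paralogs restricted to muscle or testis were near or at 0. Rpl3l, the striated-muscle copy of Rpl3, and Rpl10l, the testis copy of Rpl10, had 0 counts in every library, which allows up to 0.184, 0.176 and 0.185 CPM in libraries 1, 2 and 3 (3 counts each, counting error only). Rpl39l, another testis copy, had 0, 0 and 1 counts. Their widely expressed counterparts had 22.2 ± 8.28 TPM (Rpl3), 88.8 ± 21.8 TPM (Rpl10) and 1.82 ± 0.52 TPM (Rpl39). Rps27l, a p53-inducible copy of Rps27, had 4, 4 and 6 counts and 0.82 ± 0.50 TPM (0.53 TPM without library 3), and Rps27 had 13.8 ± 7.06 TPM. The level of Rps27l is uncertain, since it was 2.35 TPM as a posterior mean and 3.76 TPM in the second quantification the authors deposited, where it was detected. The muscle and testis copies are thus not detectable at this depth.

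Other paralogs were present beside their counterparts. Rpl22l1 had 2.21, 3.28 and 5.58 TPM, and Rpl22, an RNA-binding protein that in mice restrains its copy, had 3.07, 4.85 and 6.27 TPM. Rpl22l1 was lower in each library, but its posterior mean was 18.9 TPM, above Rpl22, so the order of the pair is not set. Rpl36al had 0.74, 2.32 and 4.16 TPM (mean 2.41, or 1.53 without library 3), and Rpl36a had 2.28, 2.06 and 6.46 TPM (mean 3.60, or 2.17 without library 3). The order of this pair changed between libraries, whereas the second quantification put Rpl36al (mean 1.75 TPM) below Rpl36a (mean 10.6 TPM) in each. Rpl7l1, which acts in ribosome assembly, had 3.20 ± 0.80 TPM and Rpl7 8.48 ± 2.46 TPM. Rps4x, encoded on the X chromosome, had 3.42 ± 0.95 TPM.

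Most of the members' chromatin RNA was assigned to transcript models that do not encode the protein. The members have 501 transcript models, 235 protein-coding, 176 retained-intron, 65 processed-transcript and 25 nonsense-mediated decay models. Summed over all members, retained-intron models held 53.8%, 52.8% and 50.2% of the expected counts in libraries 1, 2 and 3, and protein-coding models 37.4%, 38.9% and 41.1%. Counts are assigned to annotated models, so the classes describe where the authors' quantification placed reads, and splicing itself was not measured.

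Per gene the picture was the same. Among the 71 detected members with models of at least 2 classes, the median protein-coding share was 37.7 ± 3.42%, against 75.1 ± 0.61% for the 8991 detected protein-coding genes of that kind. In 43 of 71 members under 50% of the counts lay on protein-coding models, as in 26.0% of those protein-coding genes. Among the 63 members with a retained-intron model, the median retained-intron share was 57.3 ± 3.98%, against 23.2 ± 0.44% for 6777 protein-coding genes with such a model. That share exceeded 50% in 36 of the 63 members and in 22.5% of the protein-coding genes. Gene length moved with it: 1286 other protein-coding genes with such a model, within the members' 5th to 95th percentile of gene length, had a median of 36.2 ± 1.75%, and 36.5% of them exceeded 50%. The part of gene length in the difference was not tested.

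Large and small subunit genes did not separate in this respect. Their median protein-coding shares were 36.8 ± 2.53% in 42 large and 37.5 ± 4.19% in 29 small subunit genes, and their median retained-intron shares 47.3 ± 6.96% and 53.3 ± 1.42%. The 27 members that host an annotated snoRNA had a median retained-intron share of 57.1 ± 4.39%, and the 44 members that host none 45.0 ± 4.11%. All 71 members with at least 2 classes together had a median of 49.0 ± 3.22%. Mitochondrial ribosomal protein genes, 55 of which have at least 2 classes, had 22.5 ± 1.52%, below these cytosolic members in every library.

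Single genes ranged over the whole scale. In Rpl10, retained-intron models held 82.8%, 82.9% and 77.4% of the counts in libraries 1, 2 and 3, so its high gene level is mostly not that of its protein-coding models. Protein-coding shares were lowest in Rpl22l1 (0% in every library, with 95.2 ± 3.35% on retained-intron models), Rps26 (2.23 ± 3.87%), Rpl35a (4.44 ± 1.61%), Rpl10a (5.49 ± 3.77%) and Rps18 (6.58 ± 6.81%). Rpl35a is uncertain, since the second quantification the authors deposited placed 27.2% of its counts on protein-coding models. In Rpl23, Rpl7a and Rps27a, for which no retained-intron model is annotated, processed-transcript models held 71.2%, 77.0% and 79.7% of the counts. Among the most abundant genes Rpl27 lay near the other end, with 88.9%, 89.9% and 92.9% on protein-coding models, and Rplp0 had 80.5%, 86.8% and 91.5%.

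**Figure D3:**
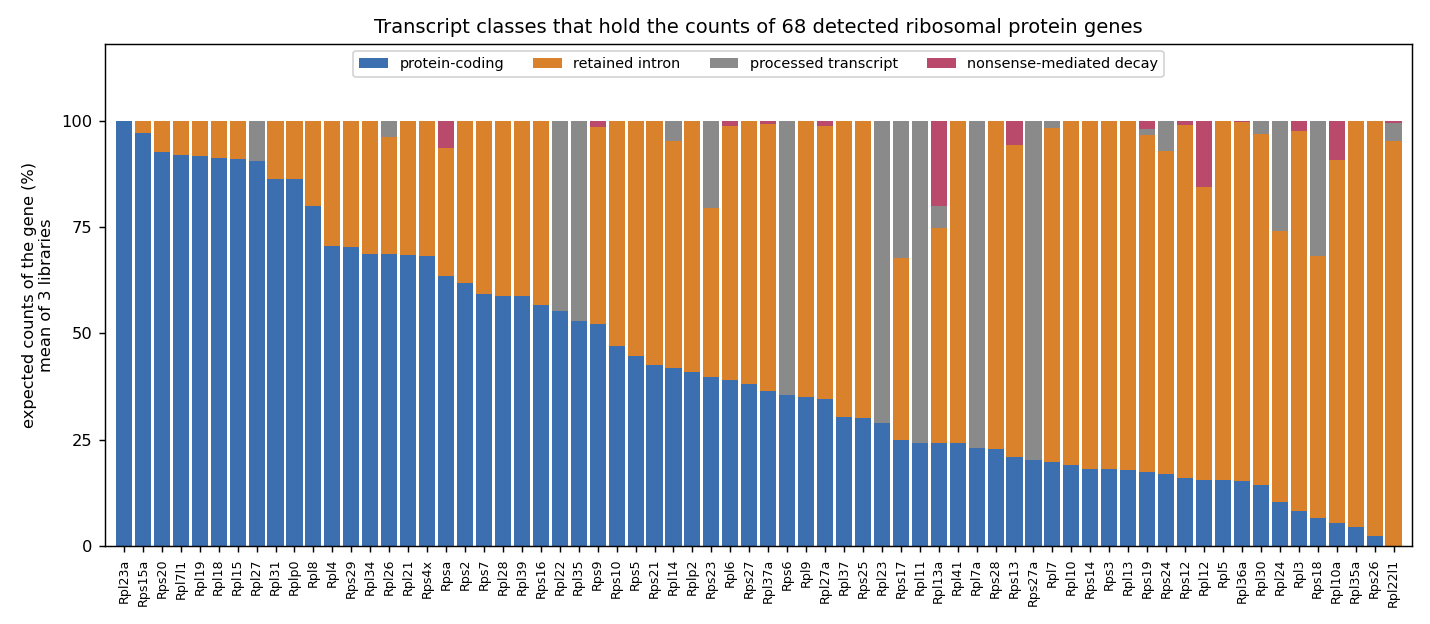
Share of each gene's expected counts (y, percent, mean of 3 libraries) on protein-coding (blue), retained-intron (orange), processed-transcript (grey) and nonsense-mediated decay models (red), for 68 detected ribosomal protein genes with at least 2 classes, ordered by protein-coding share. The protein-coding share is under 50% in 42 of these 68 genes, and 0% in Rpl22l1 at the right end.

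The few snoRNAs detected inside these genes in the first quantification differed between libraries in the same order. GENCODE annotates 58 snoRNA genes on the same strand within 30 members, 20 large and 10 small, with 5 in Rpl4 and 4 in Rpl13a. Of the 58, 8 were detected and 39 had 0 counts in every library. The sequences of 3 detected snoRNAs are given because they carry most of these counts or lie in the most abundant host. They come from the GENCODE M21 transcripts (mm10), 5′ to 3′, and capitals mark the C box TGATGA and D box CTGA of the box C/D class, or the ACA near the end of the box H/ACA class.
Snord15b in Rps3, chr7:99479563-99479707, minus strand: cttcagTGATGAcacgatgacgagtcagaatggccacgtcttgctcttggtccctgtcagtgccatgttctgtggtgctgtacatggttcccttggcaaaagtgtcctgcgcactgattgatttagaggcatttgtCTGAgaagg
Snord15a in Rps3, chr7:99482785-99482932, minus strand: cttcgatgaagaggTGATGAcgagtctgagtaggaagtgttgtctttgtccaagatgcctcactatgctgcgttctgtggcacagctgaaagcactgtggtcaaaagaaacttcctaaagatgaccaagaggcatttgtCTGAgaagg
Snora70 in Rpl10, chrX:74272484-74272620, plus strand: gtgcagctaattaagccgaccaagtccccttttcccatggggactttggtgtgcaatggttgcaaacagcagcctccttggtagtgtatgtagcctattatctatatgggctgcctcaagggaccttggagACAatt

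Snord15b had 9689, 4880 and 2405 expected counts in libraries 1, 2 and 3, and Snord15a 2254, 1313 and 560. Their host Rps3 had 352, 372 and 246. Gm26448, an annotated snoRNA in Rpsa, had 1009, 710 and 272 counts, and Rpsa had 220, 285 and 261. Snora70 had 157, 67.2 and 12.3 counts, and Rpl10 had 875, 1108 and 850. All 8 detected snoRNAs were highest in library 1 and lowest in library 3, whereas Rps3, Rpsa and Rpl10 were each highest in library 2. This contrast did not hold for every host: Rpl23, with 295, 207 and 232 counts, was highest in library 1, as was its snoRNA Snora21. Summed over all 58, the counts were 13740, 7448 and 3341, against 5933, 7269 and 5870 on the 30 host genes. The same order held for all annotated snoRNA and scaRNA genes together, with 173820, 135373 and 59137 counts, so it is not particular to these hosts. How many snoRNAs were detected depended on the quantification: 37 of 58 reached a mean of 10 counts in the second, and of these 16 were highest in library 1 and lowest in library 3, so the common order does not extend to all of them.

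**Figure D4:**
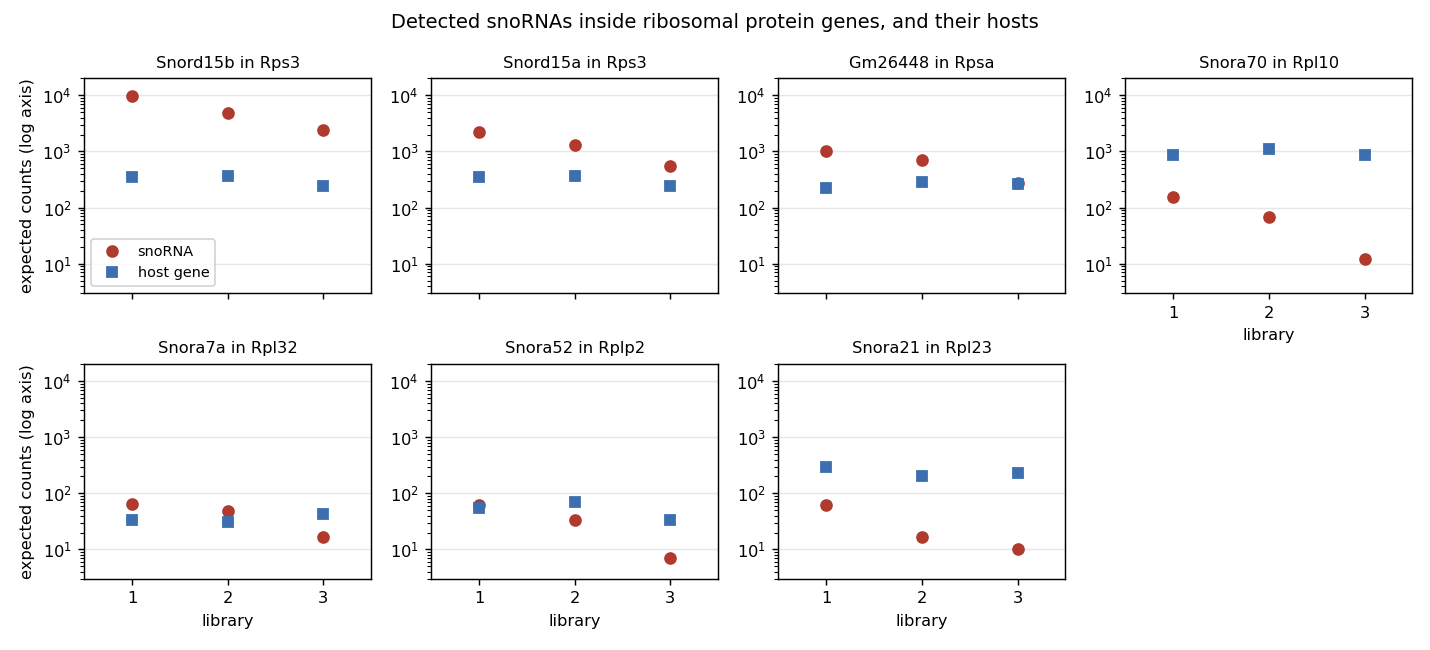
Expected counts (y, log axis) of 7 detected snoRNAs (red circles) and of the ribosomal protein gene that hosts each (blue squares) in libraries 1, 2 and 3 (x). Each snoRNA is highest in library 1 and lowest in library 3, from 9689 counts for Snord15b down to 6.97 for Snora52.

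Between libraries the members moved a little, and in part together. Relative to each gene's own mean of log2 CPM, the median member stood at 0.02, 0.18 and -0.22 in libraries 1, 2 and 3, and the median of all detected genes at 0.00, 0.01 and -0.00. Large and small subunit genes gave alike values, 0.02, 0.14 and -0.23 for large and 0.03, 0.18 and -0.20 for small. In 54 of 80 detected members library 3 was the lowest, against 36.1% of all detected genes. The amount of starting RNA and the snoRNA counts also differ between these libraries, and their part in the deviation was not tested.

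The test of spread between libraries called no gene, so it does not set the members apart from other genes. In an intercept-only edgeR quasi-likelihood fit of 13309 genes with Benjamini-Hochberg adjustment, 0 of 80 members tested were called at 0.05, where 0% of all genes were, and the smallest adjusted p of a member was 0.992. Without adjustment, 4.92% of genes and 1 member, Rpl3, fell under 0.05 in edgeR. Its log2 CPM was 4.79, 5.79 and 4.92 in libraries 1, 2 and 3, so library 2 stood apart. DESeq2 marked 0 of 81 members as dispersion outliers, against 0.72% of 17232 genes. The widest ranges of log2 CPM belonged to Rplp2 (1.85, 2.13 and 0.91), Rpl36al (-0.56, 0.40 and 0.62), Rps21 (0.10, 0.64 and -0.51) and Rps7 (2.05, 2.75 and 1.71). Some of these ranges rest on few counts, as low as 10 for Rpl36al in library 1.

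How firmly a level is set differs by gene, because ribosomal protein genes have many processed copies. For 60 members the annotation holds 298 genes named as pseudogenes, and these summed to 713 counts a library, against 13249 on the members. For the median member with such copies they came to 1.92% of its own count. The share was far larger in Rps2, with 148 counts on its copies and 210 on the gene. The authors' posterior SD of the count had a median of 0.774% of the count over members and 0% over protein-coding genes, and it passed 5% in Rpl29 (6.74%), Rpl24 (8.47%), Rpl35 (9.65%) and Rpl23a (11.9%). The second quantification gave a higher TPM than the first by a median of 0.45 in log2 over members and 0.50 over detected protein-coding genes. Among detected members it differed most for Rpl39 (15.3 TPM in the second, 1.82 TPM in the first), Rpl36 (34.0 and 7.09 TPM), Rpl24 (42.1 and 11.9 TPM) and Rps27 (44.1 and 13.8 TPM). The levels of these 4 genes are therefore uncertain, and that of Rpl36 also falls to 4.68 TPM without library 3.

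Other genes of translation framed the members. The ribosomal proteins whose names fall outside the rule include Rack1, a scaffold protein on the small subunit, at 20.3 ± 5.85 TPM and Fau, the precursor of a small subunit protein, at 13.1 ± 3.90 TPM. Elongation factors and other TOP messenger RNAs were all detected (9 of 9), with a median of 41.3 ± 11.7 TPM, above the members in every library. They were led by Eef1a1, the factor that brings transfer RNA to the ribosome, at 469 ± 87.8 TPM, Pabpc1, the poly(A)-binding protein, at 121 ± 30.1 TPM and Tpt1 at 68.2 ± 34.0 TPM. Genes of TOP translation control (8 of 8 detected) had a median of 11.5 ± 3.94 TPM, with Rptor and Mtor, parts of mTOR complex 1, at 33.4 ± 6.96 and 14.8 ± 1.99 TPM and Larp1, the TOP-binding repressor, at 13.3 ± 3.00 TPM. Ribosome biogenesis genes (18 of 20) had a median of 5.01 ± 1.98 TPM, led by nucleolin (Ncl, 24.5 ± 9.88 TPM), Ubtf (24.0 ± 9.66 TPM) and Gnl3 (17.6 ± 2.43 TPM). Mitochondrial ribosomal protein genes (59 of 78) had a median of 1.19 ± 0.49 TPM, below the cytosolic members in every library, and were led by Mrpl24 (26.2 ± 13.3 TPM), Mrps9 (17.7 ± 8.12 TPM) and Mrps5 (11.0 ± 3.19 TPM).

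**Figure D5:**
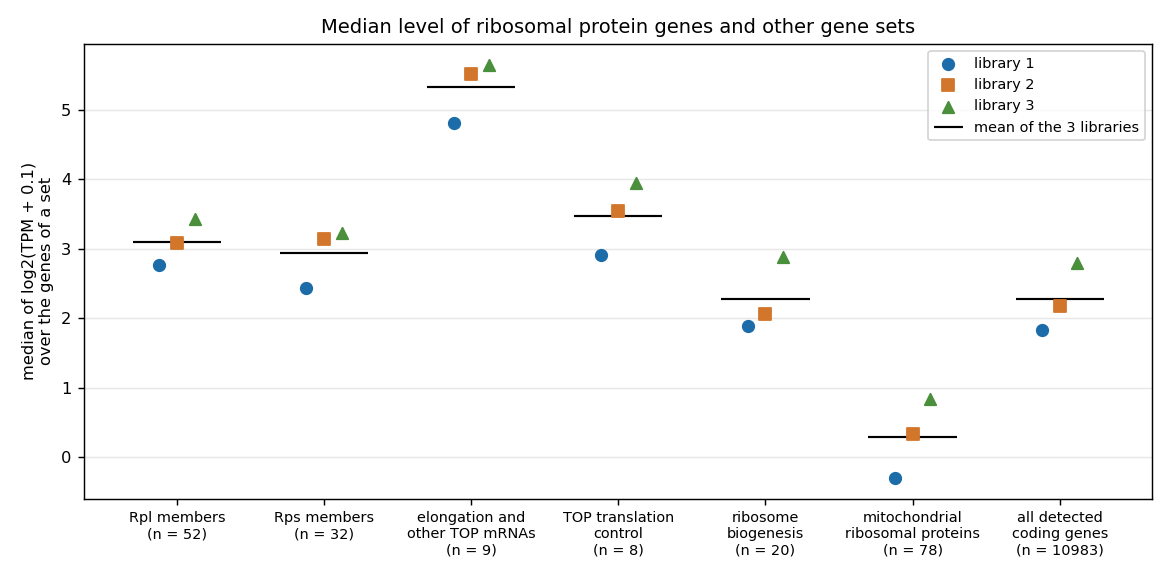
Median of log2(TPM + 0.1) over the genes of each set (y) in libraries 1, 2 and 3 (points) with their mean (line), for large and small subunit genes, 4 other sets of translation genes and all detected protein-coding genes. Large and small subunit genes average 3.09 and 2.94, all detected protein-coding genes 2.28, and every set is lowest in library 1 and highest in library 3.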

How the data were processed

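Per the deposited file notes, reads were quantified by the authors on build mm10 with GENCODE M21; which strand setting and tools were used is not given in the sources used here. Per the file headers, the gene and first transcript tables hold expected counts (not normalised), TPM, posterior mean TPM and a posterior SD of the count, and a second set of transcript tables holds estimated counts and TPM of a separate quantification, here summed per gene. Members follow a rule on symbols, but this family and the lists were chosen with earlier results of these data known. A further 26345 entries that are not annotated genes (1.03%, 0.245% and 0.218% of expected counts in libraries 1, 2 and 3) stayed out of totals and tests. Named members are the 6 highest of each subunit, the 3 lowest detected of each, undetected members, paralog pairs, 10 genes by role, the lowest protein-coding shares, the widest ranges between libraries, the largest differences between quantifications among detected members, and the hosts with most snoRNA counts. The spread test (edgeR 4.0.16, R 4.3.3, TMM, filterByExpr, counts rounded to whole numbers) set each gene's deviance against the trended prior, and was tested on simulated data. Log2 CPM used a prior count of 0.5. Alternatives were other pseudocounts, minimums, scalings (DESeq2 1.42.0) and priors, no filter, the second quantification, posterior means, protein-coding transcripts only and leaving out each replicate. Tables and plots were made with pandas 2.3.3, matplotlib 3.10.9, scipy 1.17.1 and numpy 2.4.6 in Python 3.11.15. Without a strand setting, overlapping genes on opposite strands are uncertain. Intervals and limits on 0 counts cover counting error only. No protein sequences were used here. A few genes that entered the counts and medians are not reported here by name and are left out of the plots.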

Additional observations from a re-analysis of the deposited data

How the results depend on the processing

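The members' median of 3.01 ± 0.41 in log2(TPM + 0.1) was 3.64 in the second quantification, 2.60 as log2 CPM without length correction and 1.72 with protein-coding transcripts only. With TPM rescaled over genes of at least 300 bases it was 4.56 ± 0.11. Much of the SD of that median over libraries is thus a scale shared within each library. Leaving out each replicate gave 2.83 to 3.24 without that rescaling. The large minus small difference of 0.16 turned to -0.030 with protein-coding transcripts only and to -0.16 with means over members, was 0.30 without paralogs, and spanned 0.07 to 0.26 when a replicate was left out. The median protein-coding share of 37.7% was 41.8% in the second quantification, 32.8% as a share of TPM and 32.2% at a minimum of 50 counts (35.7 to 38.7% without a replicate). The median retained-intron share of 57.3% was 51.2% in the second quantification (55.0 to 58.6% without a replicate), and the 8 detected snoRNAs became 37 there (8 to 10 without a replicate); both alternatives were chosen after seeing the data. Pyrimidine runs at 40.8% of windows became 53.9% at a minimum of 4 bases and 56.6% within 10 bases. The cause of these shifts was not tested. Between 75 and 81 members were detected under every alternative run, the spread test called 0 members under each, and the deviations by library kept their sign. Since that test called 0 of all 13309 genes in the main setting, its 0 members are no check of stability. Of single members' levels, 50 of 84 moved beyond their SD in the second quantification, 49 of them higher. Leaving out a replicate moved 0, but a mean of 3 libraries cannot shift beyond their SD in that way. That result is therefore no check of single levels. No paired analysis was possible because there is only 1 group. With 102 counts for the median member, shares of low genes such as Rpl39 are imprecise, and the snoRNAs at 0 are not shown to be absent.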
